A study of Mus musculus with 16 samples.

Results

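The genes described are the mouse cytochromes P450, aldehyde dehydrogenases, aldo-keto reductases of family Akr1 and alcohol dehydrogenases, in primary lung fibroblasts with or without meflin and with or without TGF-β1. They were chosen by symbol alone (names that begin with Cyp and a digit, Aldh, Akr1, or Adh and a digit, leaving out the cholesterol synthesis gene Cyp51), and no measured value entered the choice. The array carried 142 of them among 22906 named genes, and 69 were bright enough to test among 15394 tested genes. Cytochromes P450 are haem enzymes that oxidise steroids, retinoids, fatty acids and foreign compounds with electrons from a reductase. Alcohol and aldehyde dehydrogenases and aldo-keto reductases move alcohols, aldehydes and ketones between oxidation states. In the retinoid pathway, retinol is oxidised to retinaldehyde by alcohol and retinol dehydrogenases, retinaldehyde to retinoic acid by the Aldh1a enzymes, and retinoic acid is cleared by the Cyp26 enzymes. Retinoic acid then acts through nuclear receptors, and in lung the Aldh1a genes are expressed by fibroblasts and mesothelium, among other cells.

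RNA was measured on 16 Agilent 1-colour arrays, 4 in each of 4 groups. The cells were lung fibroblasts cultured from mice labelled as female and 8 weeks old, either wild type C57BL/6J or knockout for meflin (the membrane-anchored fibroblast protein encoded by Islr). They were kept for 48 h in vehicle or in 5 ng/ml of recombinant TGF-β1, the cytokine that drives fibroblasts towards contractile myofibroblasts. The design text counts 4 separate experiments per group, and whether each array came from its own mice is not given, so p-values measure the spread between these arrays. The strain of the knockout line and its knockout strategy are not given either. Values are log2 signals, aligned between arrays at the 75th percentile of spot intensity, and they order arrays for 1 gene but not genes against each other.

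Islr checked the labels. Its log2 signal was 10.82 ± 0.06 (SD, n = 4) in wild type vehicle cells and 8.34 ± 0.08 in wild type TGF-β1 cells, while all 8 knockout arrays were at background. The knockout was therefore at least 138-fold lower in vehicle cells, and the bound for TGF-β1 cells was 19.8-fold. Between 31308 and 35457 probes per array were well above background, and within-group correlations between arrays were 0.99587 to 0.99808 (Pearson's r, across tested genes). Replicates 1 and 2 of every group shared a slide, and replicates 3 and 4 another. Markers of fibroblasts were well above background on all arrays (6 of 6 listed genes in every group), and so were 6 of 6 markers of macrophages and leukocytes. In such bulk cultures, fewer cells of a type and less RNA per cell cannot be told apart.

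Of the 142 genes, 73 did not reach the level for testing, which asked for 1 group with a probe well above background in all 4 of its arrays, and 58 of these 73 were not above background on any array. The tested share was 48.6%, against 67.2% of all named genes. It differed by family. Tested were 19 of 21 Aldh genes, 11 of 15 Akr1 genes, 3 of 6 Adh genes and 36 of 100 Cyp genes. Grouped by role, 6 of 10 retinoid genes, 9 of 21 genes for steroids, sterols and vitamin D, 15 of 53 xenobiotic P450 genes and 13 of 29 fatty acid and eicosanoid P450 genes passed.

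**Figure D1:**
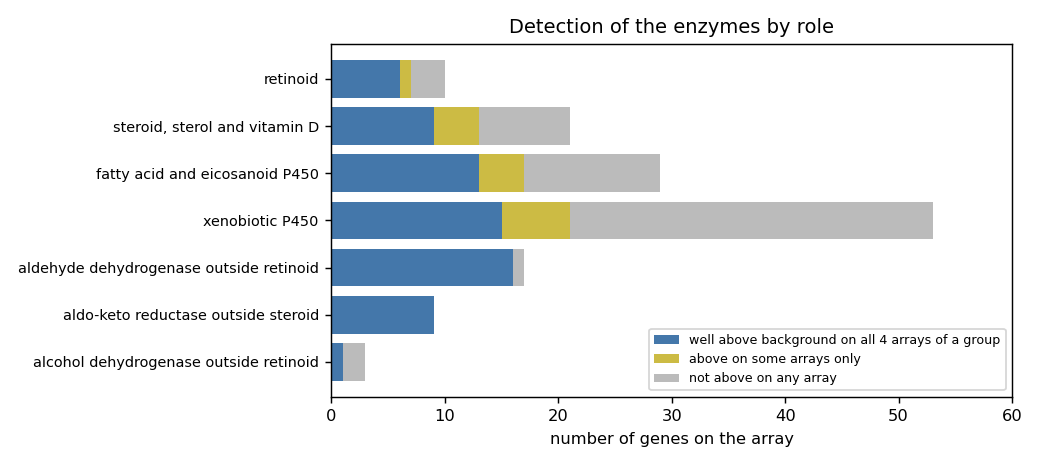
Number of genes on the array (horizontal axis) in each role (vertical axis), split by whether a probe was well above background on all 4 arrays of a group, on some arrays only, or on none. All 9 aldo-keto reductases outside the steroid role were tested, against 15 of 53 xenobiotic P450 genes.

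The genes left at or near background include much of what these families do in liver, adrenal and gonad. Among the xenobiotic P450s they were Cyp1a1 and Cyp1a2, which are induced through the aryl hydrocarbon receptor (AhR), the ethanol-inducible Cyp2e1, all 8 Cyp3a genes on the array, the Cyp2a genes, and most Cyp2b and Cyp2c genes. Among the steroid and sterol genes they were Cyp11a1, which makes pregnenolone from cholesterol, Cyp11b1 and Cyp11b2 of corticosteroid synthesis, the aromatase Cyp19a1, Cyp24a1 and Cyp27b1 of vitamin D metabolism, the bile acid genes Cyp7a1 and Cyp8b1, and Akr1b7, Akr1c6, Akr1c21 and Akr1d1. Among the retinoid genes they were Adh4, Cyp26a1 and Cyp26c1, on 0 of 16 arrays each, and Aldh8a1, on 3 of 16 arrays. For these genes the arrays give no level, and an absent difference was not measurable. Cyp11a1, Cyp1a1 and Cyp1a2 lie 5, 14 and 15 genes from Islr on chromosome 9, and none of them could be tested.

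Treatment with TGF-β1 was the first comparison. In wild type cells 20 of the 69 tested genes rose and 28 fell (limma, Benjamini-Hochberg adjusted p under 0.05), where 41.3% of all tested genes rose and 27.3% fell. In knockout cells 18 rose and 33 fell, against 46.6% and 35.9% of all genes. In total 68.6% of all genes passed in wild type and 82.5% in knockout cells. Because so many genes changed, a call alone says little. Fitted falls of at least 2-fold numbered 11 of 69 in wild type cells, where 6.45% of all genes had one, and 21 of 69 in knockout cells, against 13.6%. Of the 11, Akr1c19 ended at background with no fold to give, and of the 21, Aldh1a7, Cyp2b10 and Cyp2f2 ended at background with bounds under 2-fold, which leaves 10 and 18. Rises of at least 2-fold numbered 2 (3.26% of all genes) and 5 (9.56%). The median log2 difference of the 69 genes was -0.01 in wild type and -0.13 in knockout cells, beside 0.08 and 0.10 for all tested genes. The filter keeps genes that are bright in 1 group only, so the tested genes do not stand for all 142. Without the filter, 41 of 142 rose and 31 fell in wild type cells (35.9% and 19% of all genes), and 50 rose and 35 fell in knockout cells (42.4% and 25%). Among the 58 genes above background on all 16 arrays, 20 rose and 19 fell in wild type (44.5% and 25.7% of all such genes) and 18 rose and 25 fell in knockout cells (49.8% and 33.9%).

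Both genotypes often moved the same way. Across the 69 genes, 14 rose in both and 25 fell in both, 14 passed in neither, and 11 passed in 1 genotype only. Of all tested genes, 35% rose in both, 23.5% fell in both and 11.3% passed in neither. Among those that passed in 1 genotype only, 10.1% of all genes rose and 9.98% fell in knockout cells. The wild type shares were 3.81% and 2.37%. Calls went opposite ways for 5 genes, named here after their values were seen. Aldh1l1, Aldh5a1, Cyp7b1 and Cyp2d12 rose in wild type and fell in knockout cells, and Akr1c19 was called the reverse. The wild type call of Akr1c19 lies at the edge of detection and was lost under normexp background correction (-0.07). Such opposite calls were made for 2.49% and 1.46% of all tested genes. The response itself differed between genotypes (interaction) for 43 of 69 genes. It was more positive in knockout cells for 12 and more negative for 31, against 31.7% and 26.5% of all tested genes (58.2% in total). For Aldh1a7, Cyp2b10, Cyp2c23 and Cyp2f2, among the 31, signals below background leave the direction undetermined. Values by slide were similar for TGF-β1. With the slide as a block 21 rose and 28 fell in wild type and 21 and 32 in knockout cells (6527 and 4290, and 7260 and 5586, of all 15394 tested genes). Within the first slide the counts were 14 and 23 and then 14 and 31, and within the second 20 and 25 and then 21 and 30. For all tested genes the first slide gave 5080 and 3370 and then 6421 and 4876. The second gave 5470 and 3756 and then 6786 and 5194. The interaction counts were 12 and 32 with the block, 6 and 23 within the first slide and 15 and 23 within the second. For all tested genes they were 5114 and 4234, 2773 and 2842, and 4368 and 3492. The authors' own value table holds 32 of these genes, of which 5 rose and 23 fell in wild type and 6 rose and 25 fell in knockout cells. Rises were 17.9% and 19.4% of these calls, beside 41.7% and 35.3% for the 69 genes, and 45.8% and 45.5% of calls over all genes of that table. All 28 and 29 members called above and fitted in the table kept their sign there.

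**Figure D2:**
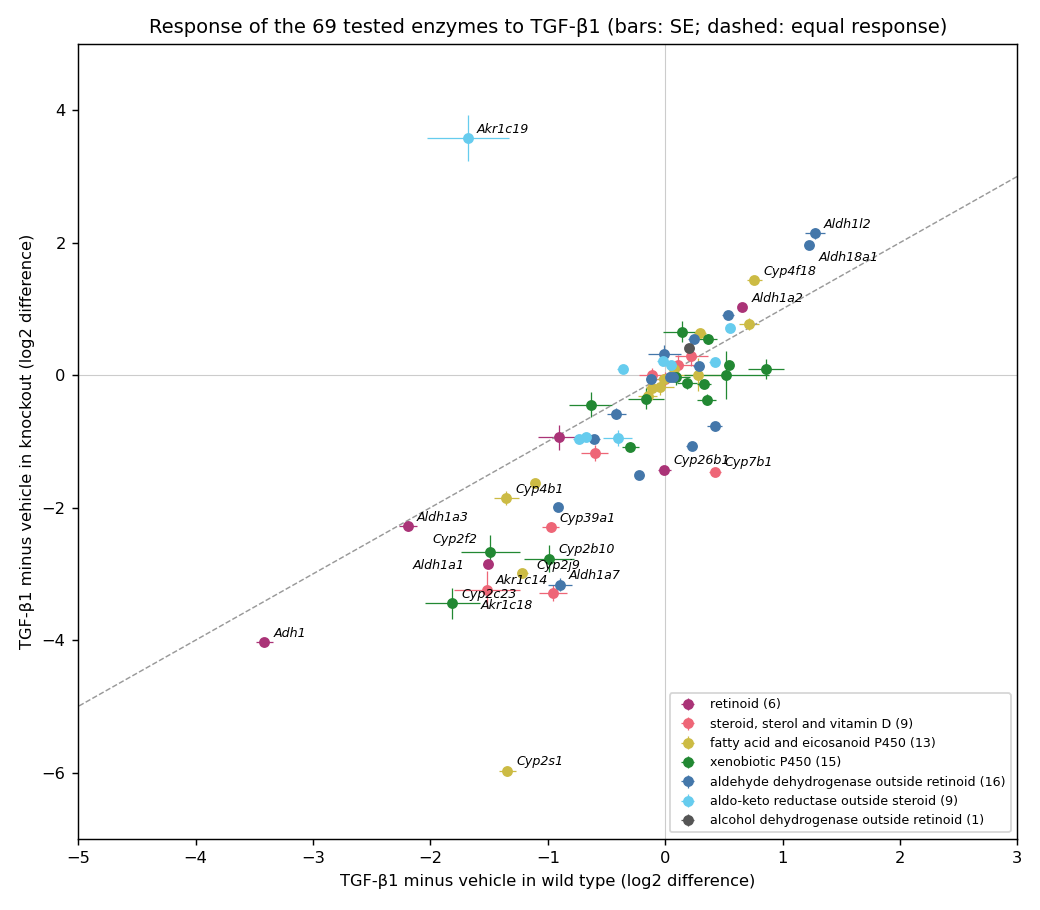
Log2 difference between TGF-β1 and vehicle in wild type cells (horizontal axis) and knockout cells (vertical axis) for each of the 69 tested genes, coloured by role (fitted values, also for 2 genes at background with TGF-β1 in wild type and 5 in knockout cells), with standard errors as bars and a dashed line of equal response. Cyp2s1 lies far below the line at -1.34 and -5.97, and Akr1c19 far above it at -1.68 and 3.58.

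Genotype was compared within each treatment. With vehicle, 5 of 69 genes were higher and 10 lower in knockout cells (7.07% and 6.16% of all tested genes, 13.2% in total). Of the 69 genes, 0 were at least 2-fold higher and 0 at least 2-fold lower, where 0.065% and 0.247% of all genes were. These calls were few within slides, with 1 higher and 0 lower within the first slide (limma, 6 and 11 at an unadjusted p under 0.05) and 2 and 7 within the second, while the block by slide gave 5 and 12. For all tested genes the adjusted calls were 59 and 137, 380 and 669, and 1327 and 1065. With TGF-β1, 15 were higher and 36 lower in knockout cells (39.6% and 30.5% of all tested genes, 70.2% in total), with fitted differences of at least 2-fold for 15 lower and 1 higher, beside 7.02% and 3.31%. For Akr1c14, Aldh1a7, Cyp2b10, Cyp2c23 and Cyp2f2 knockout signals below background allow no bound of 2-fold, which leaves 10 lower. Within the slides these counts were 9 higher and 31 lower, and 17 higher and 32 lower (4751 and 3650, and 5523 and 4272, of all tested genes). In the authors' value table they were 5 and 23 of 32 genes, and higher calls made up 17.9% (29.4% for the 69 genes, 46.4% over all genes of that table). For the interaction they were 4 and 21, with 16% higher (27.9% for the 69 genes, 47.6% over that table). Of members called above and fitted there, 29 of 30 kept the sign of the TGF-β1 difference and 27 of 27 that of the interaction. The vehicle and TGF-β1 groups are each shared between comparisons, so the counts for treatment, genotype and interaction are not separate evidence.

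Of the retinoid genes of these families, Adh1 fell most. Adh1, the cytosolic alcohol dehydrogenase that oxidises retinol and ethanol, had log2 signals of 12.29, 12.31, 12.32 and 12.22 in wild type vehicle cells and 12.21, 12.20, 12.27 and 12.33 in knockout vehicle cells. With TGF-β1 it had 8.87, 8.78, 8.95 and 8.88 in wild type cells and 8.48, 8.09, 8.12 and 8.19 in knockout cells. The vehicle groups overlapped, and every TGF-β1 array lay far below them. Adh1 fell 10.7-fold in wild type (log2 difference -3.41 ± 0.07 SE, limma adjusted p = 9.749e-15) and 16.4-fold in knockout cells (-4.03 ± 0.07, limma adjusted p = 2.806e-16). The fall was larger in knockout cells by 0.62 log2 units (interaction -0.62 ± 0.10, limma adjusted p = 7.923e-05), a call that was lost within the first slide (-0.45, adjusted p = 0.08357). Adh7, another retinol-oxidising alcohol dehydrogenase, was dim and fell in both genotypes (-0.90 ± 0.18 and -0.94 ± 0.18). It was above background on 2 of 4 wild type and 3 of 4 knockout TGF-β1 arrays. Its falls shrank to -0.11 and -0.02 under normexp background correction, below the threshold, and within the second slide the wild type fall was not called (-0.53, adjusted p = 0.06619). Adh4 stayed at background, and Adh1 and Adh7 are neighbours in the Adh cluster of chromosome 3. The cluster's ubiquitous member Adh5, which handles glutathione-bound formaldehyde, rose by 0.21 and 0.41 log2 units, a direction that became -0.0029 and -0.04 under quantile normalization. Adh5 was chosen after its values were seen.

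The second step, retinaldehyde to retinoic acid, moved in opposite directions for its 3 enzymes. Aldh1a1 had log2 signals of 14.59, 14.60, 14.61 and 14.61 in wild type vehicle, 13.08, 13.04, 13.12 and 13.13 in wild type TGF-β1, 14.51, 14.61, 14.60 and 14.66 in knockout vehicle, and 11.64, 11.82, 11.70 and 11.81 in knockout TGF-β1 cells. The genotypes were alike with vehicle and fully apart with TGF-β1. Aldh1a1 fell 2.85-fold in wild type (-1.51 ± 0.04, limma adjusted p = 4.728e-13) and 7.22-fold in knockout cells (-2.85 ± 0.04, limma adjusted p = 1.052e-16), an interaction of -1.34 ± 0.06 (limma adjusted p = 1.806e-10). Aldh1a3 had 10.36, 10.27, 10.51 and 10.68 in wild type vehicle, 8.37, 8.25, 8.18 and 8.26 in wild type TGF-β1, 9.93, 9.92, 9.92 and 9.96 in knockout vehicle, and 7.74, 7.50, 7.63 and 7.73 in knockout TGF-β1 cells. None of these groups overlapped another. It fell 4.57-fold in wild type (-2.19 ± 0.08) and 4.85-fold in knockout cells (-2.28 ± 0.08), and the difference between these falls did not pass (-0.09 ± 0.11, limma adjusted p = 0.5081). It was also lower in knockout cells with vehicle (-0.52 ± 0.08, limma adjusted p = 0.0003844), though this call was lost within the first slide (-0.39, adjusted p = 0.1128).

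Aldh1a2, the retinaldehyde dehydrogenase of the embryo and of mesenchymal and mesothelial cells, rose. Its log2 signals were 12.90, 12.89, 12.94 and 12.89 in wild type vehicle, 13.52, 13.56, 13.61 and 13.57 in wild type TGF-β1, 12.57, 12.70, 12.66 and 12.72 in knockout vehicle, and 13.67, 13.69, 13.70 and 13.70 in knockout TGF-β1 cells. Every TGF-β1 array lay above every vehicle array. The rise was 1.58-fold in wild type (0.66 ± 0.03, limma adjusted p = 3.037e-10) and 2.04-fold in knockout cells (1.03 ± 0.03, limma adjusted p = 4.739e-13). The difference between genotypes was smaller, -0.24 ± 0.03 with vehicle and 0.12 ± 0.03 with TGF-β1. The vehicle difference was not called within the first slide (adjusted p = 0.1127), nor the TGF-β1 difference within either slide (adjusted p = 0.09083 and 0.07372), and the latter turned to -0.11 under quantile normalization. Of these 3 enzymes, only Aldh1a2 rose with TGF-β1.

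Of the genes that clear retinoic acid, Cyp26b1 alone was above background, and its RNA differed between genotypes in each treatment. It had log2 signals of 10.47, 10.43, 10.60 and 10.41 in wild type vehicle and 10.36, 10.49, 10.56 and 10.47 in wild type TGF-β1 cells. In knockout cells it had 11.25, 11.28, 11.38 and 11.41 with vehicle and 9.87, 9.97, 9.86 and 9.90 with TGF-β1. The wild type groups overlapped, the knockout vehicle arrays lay above them and the knockout TGF-β1 arrays below. Cyp26b1 was 1.80-fold higher in knockout cells with vehicle (0.85 ± 0.05, limma adjusted p = 1.69e-07), and 1.48-fold lower with TGF-β1 (-0.57 ± 0.05, limma adjusted p = 2.088e-07). TGF-β1 lowered it 2.69-fold in knockout cells (-1.43 ± 0.05, limma adjusted p = 1.764e-12), and in wild type the difference was -0.01 ± 0.05 (limma adjusted p = 0.8987). The interaction was -1.42 ± 0.08 (limma adjusted p = 9.051e-10).

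**Figure D3:**
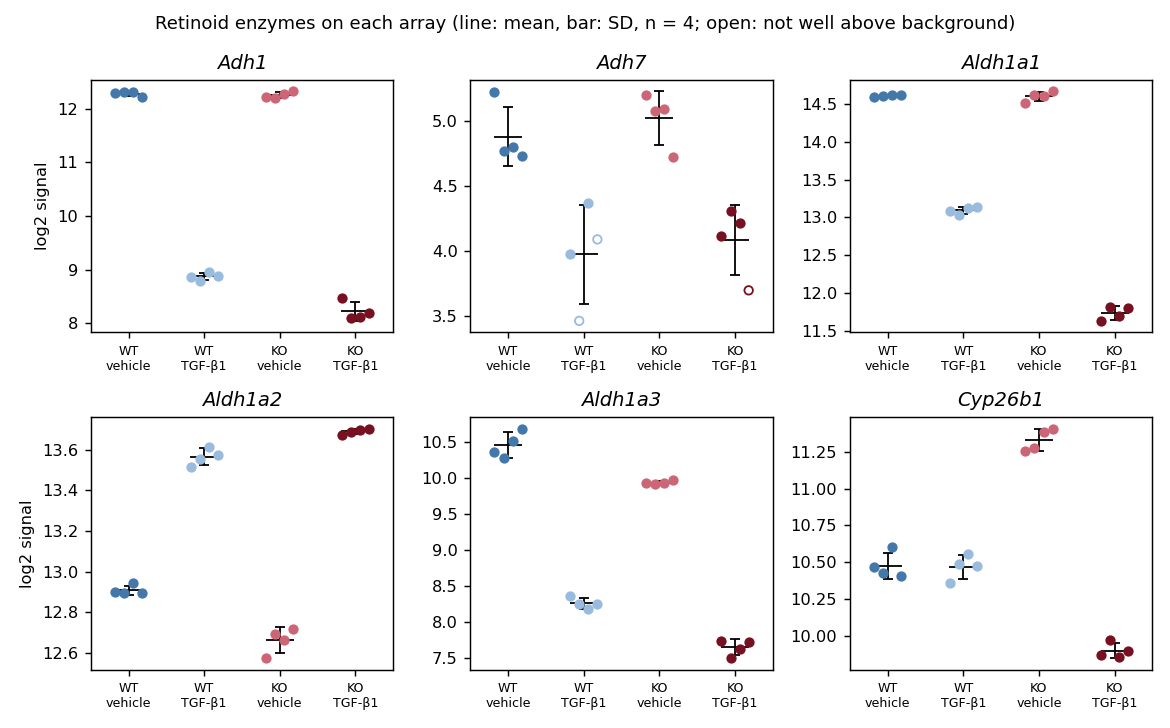
Log2 signal (vertical axes, scaled to each gene) of the 6 tested retinoid genes on every array of the 4 groups, with the mean as a line and SD as a bar (n = 4) and open points for arrays not well above background. Adh1, Adh7, Aldh1a1 and Aldh1a3 are lower and Aldh1a2 is higher on all TGF-β1 arrays, and Cyp26b1 is lowest in knockout TGF-β1 cells.

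The retinoid genes outside these families were read beside them. Rises and falls of all genes with TGF-β1 were 41.3% and 27.3% in wild type and 46.6% and 35.9% in knockout cells. Of 11 tested retinol dehydrogenases and retinal reductases, 4 rose and 3 fell in each genotype with TGF-β1 (median log2 -0.05 in wild type and -0.01 in knockout). Dhrs3, which reduces retinaldehyde back to retinol, rose in wild type (0.50 ± 0.04) and was at 0.01 ± 0.04 in knockout cells. Of 6 tested genes of retinoid uptake, transport and storage, 1 rose and 3 fell in wild type and 2 rose and 2 fell in knockout cells. Lrat, which stores retinol as esters, had group means of 6.10 ± 0.16 (SD, n = 4) in wild type vehicle, 5.44 ± 0.17 in wild type TGF-β1, 6.89 ± 0.07 in knockout vehicle and 4.47 ± 0.19 in knockout TGF-β1 cells. Lrat had the same order of groups as Cyp26b1 at its ends, highest in knockout vehicle and lowest in knockout TGF-β1 cells. Crabp1, a cytosolic carrier of retinoic acid, rose 2.14-fold and 2.71-fold. Of 11 tested receptors and targets of retinoic acid, 5 rose and 3 fell in wild type and 6 rose and 4 fell in knockout cells. Rarb, a receptor gene that retinoic acid itself induces, rose 3.55-fold and 5.27-fold, and Tgm2, a transglutaminase induced by retinoic acid, 2.38-fold and 3.885-fold. Rarres2 fell by 2.10 in wild type and by 2.79 in knockout cells. Retinoic acid was not measured.

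Among the 9 tested genes for steroids, sterols and vitamin D, 1 rose and 4 fell with TGF-β1 in wild type cells. Of all genes 41.3% rose and 27.3% fell there. In knockout cells 0 rose and 5 fell, against 46.6% and 35.9% of all genes. The 5 falls in knockout cells were each at least 2-fold on the fitted scale (Akr1c14, Akr1c18, Cyp27a1, Cyp39a1 and Cyp7b1, listed whole), against 1 in wild type. Such falls were made by 13.6% of all genes in knockout and 6.45% in wild type cells. Cyp7b1, the oxysterol hydroxylase that also acts on dehydroepiandrosterone, had log2 signals of 11.62, 11.41, 11.62 and 11.70 in wild type vehicle, 12.02, 12.02, 12.04 and 11.97 in wild type TGF-β1, 11.83, 11.79, 11.79 and 11.78 in knockout vehicle, and 10.29, 10.41, 10.25 and 10.39 in knockout TGF-β1 cells. No group overlapped another. Cyp7b1 rose 1.34-fold in wild type (0.43 ± 0.05, limma adjusted p = 4.66e-06) and fell 2.75-fold in knockout cells (-1.46 ± 0.05, limma adjusted p = 1.188e-12), an interaction of -1.89 ± 0.08 (limma adjusted p = 3.24e-11). Its difference with vehicle (0.21 ± 0.05) was not called within either slide (adjusted p = 0.1595 and 0.2806). Cyp39a1, which hydroxylates another oxysterol, fell by 0.98 and by 2.29 log2 units, and Cyp27a1, the mitochondrial sterol hydroxylase, fell by 0.60 and by 1.18, down to 1 of 4 arrays above background in knockout TGF-β1 cells. The androgen and corticosteroid genes Cyp17a1 and Cyp21a1, the vitamin D hydroxylase Cyp2r1 and the cholesterol hydroxylase Cyp46a1 passed in no comparison. Cyp17a1 differed by 0.22 ± 0.14 and 0.28 ± 0.14 with TGF-β1.

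Akr1c18, the aldo-keto reductase that inactivates progesterone, fell far more in knockout cells. Its log2 signals were 8.29, 8.33, 8.26 and 8.34 in wild type vehicle, 7.36, 7.32, 7.43 and 7.28 in wild type TGF-β1, 7.86, 8.13, 8.11 and 8.11 in knockout vehicle, and 5.11, 4.33, 4.87 and 4.74 in knockout TGF-β1 cells. Each TGF-β1 group lay below both vehicle groups, and the knockout below the wild type. Akr1c18 fell 1.94-fold in wild type (-0.95 ± 0.12, limma adjusted p = 4.227e-06) and 9.78-fold in knockout cells (-3.29 ± 0.12, limma adjusted p = 1.01e-12). Akr1c14, a hydroxysteroid dehydrogenase of the same cluster, had 6.20, 6.11, 6.02 and 6.24 in wild type vehicle and 6.39, 6.23, 6.03 and 6.04 in knockout vehicle cells. It fell to 5.02, 4.71, 4.63 and 4.15 in wild type TGF-β1 cells (3 of 4 arrays above background) and was not well above background on any knockout TGF-β1 array. This is a fall of at least 4.40-fold in knockout cells (limma adjusted p = 3.766e-08). In that bound and those below, the dim group is set, array by array, at its own signal or at that array's dimmest signal counted as above background, whichever is higher. All such bounds hold for the main processing only. Over the alternative settings the fitted fall of Akr1c14 in knockout cells was as small as -0.75 log2 units. The wild type fall of Akr1c14 was not called within the first slide (-1.29, adjusted p = 0.06476).

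The Akr1c genes lie side by side on chromosome 13, in the order Akr1c14, Akr1c18, Akr1c13, Akr1c19 and Akr1c12 among those tested, with Akr1c6 and Akr1c21 beyond them at background. Akr1c19 moved against its neighbours in knockout cells. It had log2 signals of 4.37, 3.80, 3.20 and 3.54 in wild type vehicle and 4.15, 3.99, 2.49 and 3.23 in knockout vehicle cells, of which the first and second in each group were above background. It had 1.56, 1.66, 2.49 and 2.48 in wild type TGF-β1 cells, none above background, and 6.97, 6.75, 7.39 and 7.07 in knockout TGF-β1 cells, all above. With TGF-β1, Akr1c19 was at least 8.97-fold higher in knockout than in wild type cells (limma adjusted p = 6.952e-09). Its fitted difference there was 1.61 to 5.25 log2 units over the alternative settings. In knockout cells its difference between TGF-β1 and vehicle was 3.58 ± 0.35 (limma adjusted p = 1.461e-07). The wild type fall of -1.68 ± 0.35 lies at the edge of detection and shrank to -0.07 under normexp background correction (adjusted p = 0.4902). In the same cells Akr1c12 and Akr1c13, on either side of Akr1c19 and chosen for that place, fell by 0.73 and by 0.68 in wild type and by 0.96 and by 0.94 in knockout cells. Their arrays did not overlap between treatments.

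The upstream sequences of 4 of these neighbours are shown because Akr1c19 moved opposite to genes on both of its sides in knockout cells. They are the 250 bases before the annotated start (RefSeq, build GRCm38.p6), written 5′ to 3′ along the gene. Akr1c12 is at chr13:4279400-4279649 on the minus strand, Akr1c13 at chr13:4190937-4191186 on the plus strand, Akr1c19 at chr13:4233490-4233739 on the plus strand and Akr1c18 at chr13:4150647-4150896 on the minus strand. Capitals mark CATTAG, a repeated string picked after these sequences were read and searched on both strands.
Akr1c12: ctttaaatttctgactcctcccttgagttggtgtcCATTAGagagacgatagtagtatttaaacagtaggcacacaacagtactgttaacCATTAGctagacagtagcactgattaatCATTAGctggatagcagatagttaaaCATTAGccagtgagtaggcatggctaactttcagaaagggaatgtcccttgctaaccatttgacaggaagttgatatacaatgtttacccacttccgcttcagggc
Akr1c13: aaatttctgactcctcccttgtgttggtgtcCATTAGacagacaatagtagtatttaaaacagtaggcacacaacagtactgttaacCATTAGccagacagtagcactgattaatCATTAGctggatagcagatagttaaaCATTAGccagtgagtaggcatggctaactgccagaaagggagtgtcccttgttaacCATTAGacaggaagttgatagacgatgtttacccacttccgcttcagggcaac
Akr1c19: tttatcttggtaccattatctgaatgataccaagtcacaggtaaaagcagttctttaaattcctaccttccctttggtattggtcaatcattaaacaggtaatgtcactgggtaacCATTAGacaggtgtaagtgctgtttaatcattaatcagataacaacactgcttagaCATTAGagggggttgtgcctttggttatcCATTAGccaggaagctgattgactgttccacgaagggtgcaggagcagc
Akr1c18: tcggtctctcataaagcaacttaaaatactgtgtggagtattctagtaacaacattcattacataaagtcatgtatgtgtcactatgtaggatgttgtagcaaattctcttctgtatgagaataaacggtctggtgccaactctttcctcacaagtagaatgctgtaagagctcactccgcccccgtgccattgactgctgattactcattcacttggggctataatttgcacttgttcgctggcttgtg
CATTAG occurs 4 times upstream of Akr1c12, 5 times upstream of Akr1c13, 3 times upstream of Akr1c19 and 0 times upstream of Akr1c18, all on the gene's own strand. At least 1 copy on either strand was found in 6.36% of all 32851 promoter windows of this length. In global alignments Akr1c12 and Akr1c13 were identical at 235 of 254 aligned columns (92.5%), and Akr1c19 matched them at 56.9% and 59% of columns. Akr1c18 matched Akr1c19 at 46.2%. Akr1c12 and Akr1c13, whose upstream windows are nearly the same, moved by nearly equal amounts, and whether their probes also bind each other's RNA was not tested.

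The P450 genes assigned to fatty acids and eicosanoids held the largest fall of all 69 genes. Cyp2s1, a P450 found mainly outside the liver, had log2 signals of 12.58, 12.56, 12.73 and 12.74 in wild type vehicle and 12.40, 12.35, 12.48 and 12.54 in knockout vehicle cells. With TGF-β1 it had 11.18, 11.32, 11.38 and 11.38 in wild type cells and 6.38, 6.43, 6.68 and 6.38 in knockout cells. It stayed well above background on every array. Cyp2s1 fell 2.54-fold in wild type (-1.34 ± 0.07, limma adjusted p = 4.446e-10) and 62.8-fold in knockout cells (-5.97 ± 0.07, limma adjusted p = 7.954e-18). With TGF-β1 it was 28.7-fold lower in knockout cells, and with vehicle the difference was -0.21 ± 0.07 (limma adjusted p = 0.07159), which passed with the slide as a block (adjusted p = 0.01636).

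Cyp2j9, which metabolises arachidonic acid, had log2 signals of 8.99, 9.02, 9.10 and 8.98 in wild type vehicle, 7.88, 7.78, 7.74 and 7.83 in wild type TGF-β1, 9.03, 9.06, 9.10 and 9.12 in knockout vehicle, and 6.19, 6.01, 6.02 and 6.16 in knockout TGF-β1 cells. The vehicle groups overlapped and the TGF-β1 groups stood apart. It fell 2.33-fold in wild type and 7.91-fold in knockout cells (interaction -1.77 ± 0.07, limma adjusted p = 2.281e-11). Its chromosomal neighbours Cyp2j6 and Cyp2j8, named for their place, differed by -0.01 ± 0.06 and -0.11 ± 0.05 in wild type and by -0.05 ± 0.06 and -0.19 ± 0.05 in knockout cells, and of these only Cyp2j8 in knockout cells passed. Another, dimmer probe for Cyp2j6 gave differences more than 1 log2 unit away in some comparisons. Cyp4f18, which inactivates leukotriene B in leukocytes, rose by 0.76 ± 0.06 in wild type and 1.43 ± 0.06 in knockout cells. Cyp4b1, a P450 abundant in lung epithelium, fell by 1.35 and by 1.86 log2 units. Its difference between genotypes with TGF-β1 (-0.26 ± 0.11) was called only narrowly. That call was lost under quantile normalization, in the authors' table, without the filter, within the first slide and without any 1 of 8 arrays, and the value turned to 0.03 under normexp background correction.

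**Figure D4:**
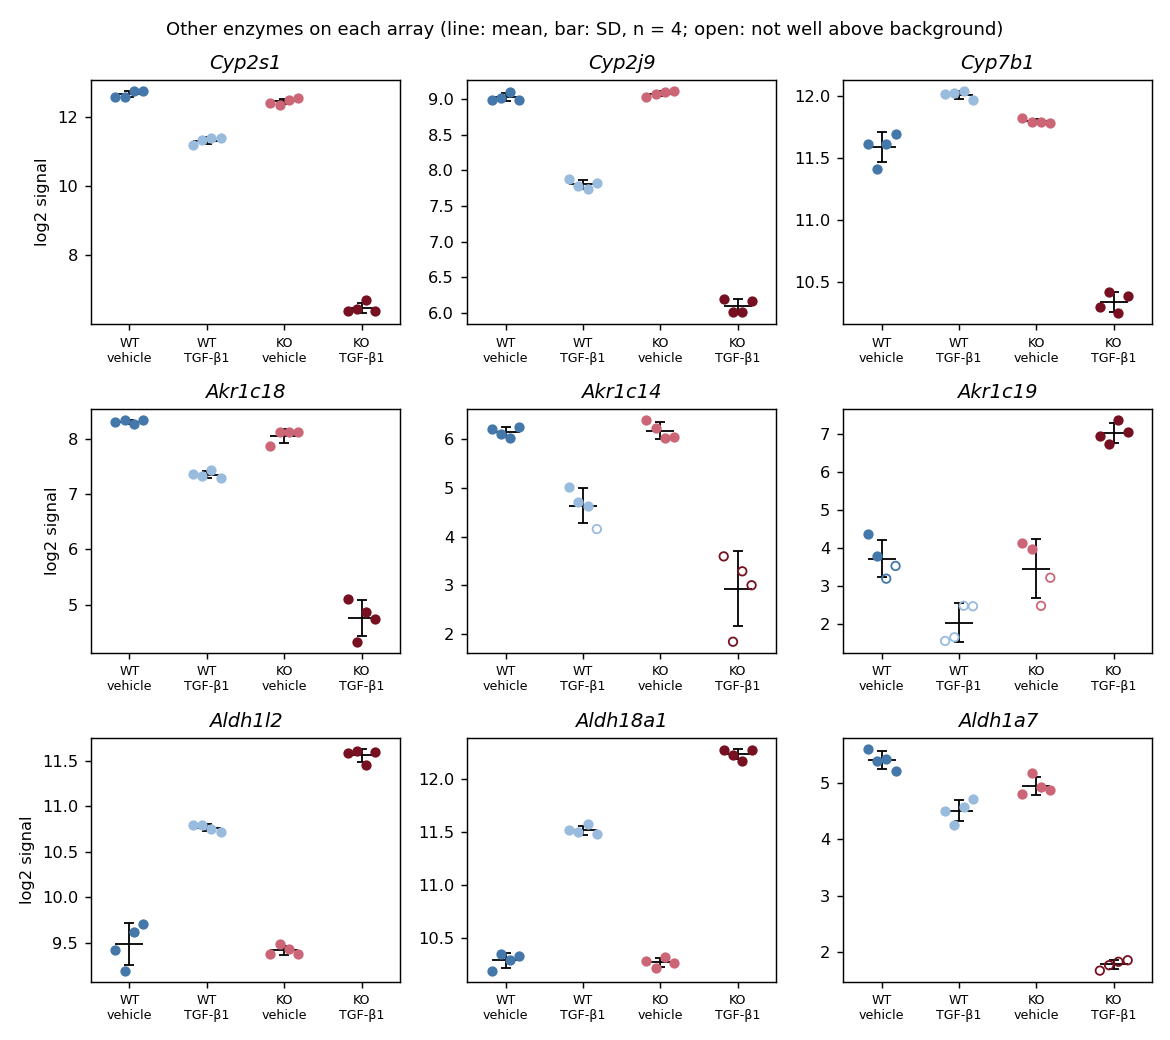
Log2 signal (vertical axes, scaled to each gene) of 9 further genes on every array of the 4 groups, with the mean as a line and SD as a bar (n = 4) and open points for arrays not well above background. Cyp2s1, Cyp2j9 and Akr1c18 are lowest in knockout TGF-β1 cells, and Akr1c19 is above background on all 4 arrays of that group alone.

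Of 15 tested xenobiotic P450 genes, 5 rose and 5 fell with TGF-β1 in wild type cells, where 41.3% and 27.3% of all genes did. In knockout cells 3 rose and 7 fell, against 46.6% and 35.9%. Cyp1b1, which oxidises oestradiol and polycyclic hydrocarbons and is induced through AhR, was picked after its values were seen. It had log2 signals of 12.31, 12.29, 12.19 and 12.20 in wild type vehicle, 12.54, 12.56, 12.59 and 12.62 in wild type TGF-β1, 11.74, 12.03, 11.97 and 12.03 in knockout vehicle, and 11.82, 11.88, 11.82 and 11.75 in knockout TGF-β1 cells. It rose 1.26-fold in wild type (0.33 ± 0.06, limma adjusted p = 0.0001273), differed by -0.13 ± 0.06 in knockout cells (limma adjusted p = 0.05525), and was 1.70-fold lower in knockout than wild type cells with TGF-β1. Cyp2b10, a target of the constitutive androstane receptor, was above background on all vehicle arrays, on 1 of 4 wild type TGF-β1 arrays and on 0 of 4 knockout TGF-β1 arrays. It fell at least 1.44-fold in knockout cells. Cyp2c23 followed the same course, with 1 and 0 of 4 arrays, and fell at least 2.78-fold in knockout cells. Cyp2f2, the club cell P450 that activates naphthalene, was above background on all vehicle arrays and on no TGF-β1 array, a fall of at least 2.54-fold in wild type and at least 1.82-fold in knockout cells. Over the alternative settings the fitted knockout falls of Cyp2b10, Cyp2c23 and Cyp2f2 were as small as -0.27, -0.47 and -0.30 log2 units. The wild type fall of Cyp2f2 was as small as -0.25. Fitted differences of Cyp2b10, Cyp2c23 and Cyp2f2 between the TGF-β1 groups depend on signals below background, so no fold between genotypes is given.

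Cyp2f2 and Cyp4b1 fell, as did some markers of lung epithelium, while others rose. Scgb1a1 and Sftpb, of club and alveolar cells, were above background on all 8 vehicle arrays and on none of the 8 TGF-β1 arrays, and Sftpc on 8 vehicle arrays and 1 TGF-β1 array. Of 9 tested markers of airway or alveolar epithelium (Cyp2f2 among them), 3 rose and 5 fell in each genotype. Beside these counts, 41.3% of all genes rose and 27.3% fell in wild type and 46.6% and 35.9% in knockout cells. The rises were the keratins Krt8 (0.72 ± 0.04 and 0.77 ± 0.04) and Krt18, and Cdh1. The mean of Cdh1 went from 5.99 to 6.98 in wild type and from 6.02 to 6.87 in knockout cells. The summed signal of each list follows its brighter probes, here Krt18 and Krt8, and can hide falls of dimmer ones. For this list it was 12.57 to 12.76 in wild type vehicle, 13.25 to 13.36 in wild type TGF-β1, 12.48 to 12.53 in knockout vehicle and 13.22 to 13.35 in knockout TGF-β1 cells on the log2 scale. All 6 macrophage and leukocyte markers fell in both genotypes, with summed signals of 16.23 to 16.50, 15.34 to 15.43, 15.95 to 16.04 and 14.83 to 14.96 in the same order. Of 6 mesothelial markers, 2 rose and 3 fell in wild type and 1 rose and 4 fell in knockout cells. Their summed signals were 14.52 to 14.59, 14.28 to 14.36, 14.33 to 14.39 and 13.43 to 13.62 in that order of groups. Their member Calb2 was above background in knockout TGF-β1 cells alone. Of 5 pericyte and smooth muscle markers, 2 rose and 1 fell in wild type and 4 rose and 1 fell in knockout cells, Notch3 being the fall in both. Their summed signal, which follows the brighter probes, went from 11.12 to 11.21 up to 11.79 to 11.84 in wild type and from 11.31 to 11.43 up to 12.47 to 12.55 in knockout cells. All 5 endothelial markers fell as well, from 11.33 to 11.41 down to 10.03 to 10.08 in wild type cells and from 11.04 to 11.16 down to 9.22 to 9.42 in knockout cells. Of 6 fibroblast markers, 3 rose and 3 fell in wild type and 2 rose and 4 fell in knockout cells. Col1a1 rose by 0.68 ± 0.04 and 0.74 ± 0.04 and Pdgfra fell by 0.44 and by 2.21, while the summed signal stayed between 18.47 and 18.86 in all groups. The part of any of these cell types in the falls of Adh1, Aldh1a1, Aldh1a3, Cyp2s1, Cyp2f2 and the other genes was not tested.

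The upstream windows of Cyp2s1, with the largest fall, and of Cyp1b1, a known AhR target, are shown for the core of the AhR binding motif, GCGTG, searched on both strands. Cyp2s1 is at chr7:25816526-25816775 on the minus strand and Cyp1b1 at chr17:79715062-79715311 on the minus strand (RefSeq, build GRCm38.p6, 250 bases before the start, 5′ to 3′). Capitals mark the motif, which on the other strand reads CACGC.
Cyp2s1: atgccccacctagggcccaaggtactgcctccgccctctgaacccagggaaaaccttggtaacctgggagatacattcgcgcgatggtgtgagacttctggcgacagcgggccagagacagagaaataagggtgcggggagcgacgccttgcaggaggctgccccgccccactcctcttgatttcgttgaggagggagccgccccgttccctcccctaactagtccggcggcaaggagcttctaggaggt
Cyp1b1: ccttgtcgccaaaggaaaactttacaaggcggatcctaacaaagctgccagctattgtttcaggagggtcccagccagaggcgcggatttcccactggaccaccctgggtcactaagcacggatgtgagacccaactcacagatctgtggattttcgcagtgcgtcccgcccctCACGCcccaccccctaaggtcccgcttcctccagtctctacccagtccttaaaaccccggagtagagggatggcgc
The Cyp1b1 window holds 1 copy on the other strand, 76 bases before the start, and the Cyp2s1 window holds 0. The motif was in 28.2% of all 32851 windows, in 18.3% of 120 windows of 107 genes of these families and in 30.4% of 56 windows of 52 tested ones. AGGTCA followed by any 5 bases and AGGTCA again, a direct repeat bound by retinoic acid receptors, was searched the same way and was in 3 of all windows and in 0 of the 120. An exact string this rare could hardly appear among 120 windows, so the 0 says nothing about retinoic acid receptor sites. All these searches are matches of letters, and sites outside the windows were not searched. Ahr itself differed by 0.08 ± 0.06 with TGF-β1 in wild type and fell by 1.03 in knockout cells. Of 8 tested AhR pathway genes, 1 rose and 4 fell in wild type cells (41.3% and 27.3% of all genes). In knockout cells 0 rose and 6 fell (46.6% and 35.9%). Ugt1a6a, a glucuronidation enzyme induced through AhR, was above background on all arrays of the other groups and on 0 of 4 knockout TGF-β1 arrays.

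Cyp2s1, Cyp2b10, Cyp2f2 and Cyp2t4 belong to 1 cluster of Cyp2 genes on chromosome 7. All 4 were called lower with TGF-β1 in both genotypes, as were 23.5% of all tested genes. Cyp2b10, Cyp2f2 and Cyp2t4 passed the filter through vehicle groups alone, which favours a call of lower, so the count is no result about the cluster. Cyp2t4 fell by only 0.63 and by 0.44, and its knockout value turned to 0.05 under normexp background correction. The wild type arrays of Cyp2b10 overlapped between treatments. The wild type fall of Cyp2b10 shrank to -0.09 under normexp (limma adjusted p = 0.2117) and was not called within the second slide (-0.39, limma adjusted p = 0.1195). The 9 other Cyp2a, Cyp2b and Cyp2g genes of that cluster on the array were at or near background.

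Aldehyde dehydrogenases outside the retinoid role were measured almost completely, with 16 of 17 tested. With TGF-β1, 7 rose and 6 fell in wild type cells (41.3% and 27.3% of all genes). In knockout cells 5 rose and 7 fell (46.6% and 35.9%). Aldh18a1, which makes the proline precursor pyrroline carboxylate from glutamate, had log2 signals of 10.19, 10.35, 10.29 and 10.33 in wild type vehicle, 11.52, 11.50, 11.58 and 11.48 in wild type TGF-β1, 10.28, 10.22, 10.32 and 10.26 in knockout vehicle, and 12.27, 12.23, 12.18 and 12.28 in knockout TGF-β1 cells. Every TGF-β1 array lay above every vehicle array, and knockout above wild type. It rose 2.34-fold (1.23 ± 0.04, limma adjusted p = 1.788e-12) and 3.91-fold (1.97 ± 0.04, limma adjusted p = 1.763e-15). Aldh4a1, which breaks proline down through the same intermediate and was chosen for that, differed by -0.12 ± 0.04 and -0.06 ± 0.04, and only the former passed. Aldh1l2, the mitochondrial enzyme of formyl-tetrahydrofolate oxidation, had 9.43, 9.20, 9.62 and 9.71 in wild type vehicle, 10.80, 10.79, 10.75 and 10.71 in wild type TGF-β1, 9.38, 9.48, 9.44 and 9.38 in knockout vehicle, and 11.59, 11.60, 11.46 and 11.60 in knockout TGF-β1 cells. It rose 2.42-fold in wild type and 4.42-fold in knockout cells (interaction 0.87 ± 0.12, limma adjusted p = 1.759e-05). Its cytosolic counterpart Aldh1l1 rose by 0.23 ± 0.05 in wild type and fell by 1.07 in knockout cells, the opposite of Aldh1l2 in the latter.

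Of the 6 aldehyde dehydrogenases that fell in wild type cells, Aldh2, Aldh3b1 and Aldh6a1 had a more negative response in knockout cells by the interaction. For Aldh4a1 and Aldh9a1 the interaction did not pass. It passed for Aldh1a7, but the bound on the knockout fall (1.87-fold) about equals the wild type fall (1.87-fold), so the direction is undetermined. Aldh1a7, the neighbour of Aldh1a1 on chromosome 19 and its close relative, had log2 signals of 5.61, 5.38, 5.42 and 5.22 in wild type vehicle, 4.50, 4.25, 4.57 and 4.71 in wild type TGF-β1, and 4.79, 5.17, 4.93 and 4.88 in knockout vehicle cells. All 4 knockout TGF-β1 arrays were at background. It fell 1.87-fold in wild type (-0.90 ± 0.10, limma adjusted p = 1.627e-06) and at least 1.87-fold in knockout cells, and with TGF-β1 it was at least 1.39-fold lower in knockout cells. Over the alternative settings the knockout fall of Aldh1a7 was as small as -0.39 log2 units, and its difference between genotypes with TGF-β1 as small as -0.29. Its vehicle difference of -0.47 ± 0.10 was not called within the first slide (adjusted p = 0.1671) or under normexp background correction (-0.12, adjusted p = 0.1129). Aldh2, which oxidises acetaldehyde, fell by 0.60 and by 0.97. Aldh3b1 fell by 0.92 and by 2.00, and Aldh6a1 of valine breakdown by 0.22 and by 1.51. Aldh2, Aldh3b1, Aldh6a1 and Aldh9a1 were chosen after their values were seen.

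All 9 aldo-keto reductases outside the steroid role were tested. With TGF-β1, 2 rose and 5 fell in wild type cells (41.3% and 27.3% of all genes). In knockout cells 5 rose and 3 fell (46.6% and 35.9%). Akr1b3, the aldose reductase that turns glucose to sorbitol, had log2 signals of 13.77, 13.81, 13.90 and 13.82 in wild type vehicle, 13.42, 13.44, 13.45 and 13.55 in wild type TGF-β1, 13.70, 13.71, 13.70 and 13.75 in knockout vehicle, and 13.70, 13.78, 13.86 and 13.91 in knockout TGF-β1 cells. The wild type TGF-β1 arrays lay below all others. Akr1b3 fell 1.28-fold in wild type (-0.36 ± 0.05, limma adjusted p = 5.825e-06), and in knockout cells the difference was 0.10 ± 0.05 (limma adjusted p = 0.05642), which passed with the slide as a block and became -0.34 under quantile normalization. Quantile normalization moved the median of all genes in the knockout TGF-β1 comparison from 0.10 to -0.01. Some small rises in knockout cells turned by more than that shift. Akr1a1 (0.21), Akr1b10 (0.15) and Aldh7a1 (0.14) became -0.38, -0.10 and -0.24, and the cause was not tested. These 3 are named because their direction depends on the scaling.

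Genes that serve the same reactions were counted for context. Beside them, 41.3% of all tested genes rose and 27.3% fell in wild type, and 46.6% and 35.9% in knockout cells. The list named xenobiotic conjugation also holds Fmo, Aox1 and Ephx genes, whose enzymes oxidise or hydrolyse. Of its 19 tested genes, 4 rose and 13 fell with TGF-β1 in wild type cells (median log2 -0.64) and 3 rose and 15 fell in knockout cells (median -1.85). Fmo2, the flavin monooxygenase of lung, fell 11.7-fold and 48.6-fold, and the glutathione transferases Gstm1, Gstt1 and Mgst1 fell 3.83-fold, 2.65-fold and 1.56-fold in wild type and 7.64-fold, 11.5-fold and 5.94-fold in knockout cells. Of 8 tested redox partners of P450s, 3 rose and 2 fell in wild type and 2 rose and 4 fell in knockout cells. Cyb5a, the cytochrome that supports microsomal P450s, fell by 0.66 and by 1.28, while Fdxr, which feeds mitochondrial P450s, rose by 0.46 ± 0.06 in wild type and fell by 0.46 in knockout cells. Of 17 tested steroid enzymes and receptors outside these families, 4 rose and 10 fell in wild type and 5 rose and 10 fell in knockout cells. Hsd11b1, which activates cortisone or its rodent form, fell by 1.12 and by 1.48, and the oxysterol receptor Nr1h3 by 0.92 and by 2.07. The oestrogen receptor Esr1 fell by 1.42 in wild type cells and was on 0 of 4 knockout TGF-β1 arrays above background.

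**Figure D5:**
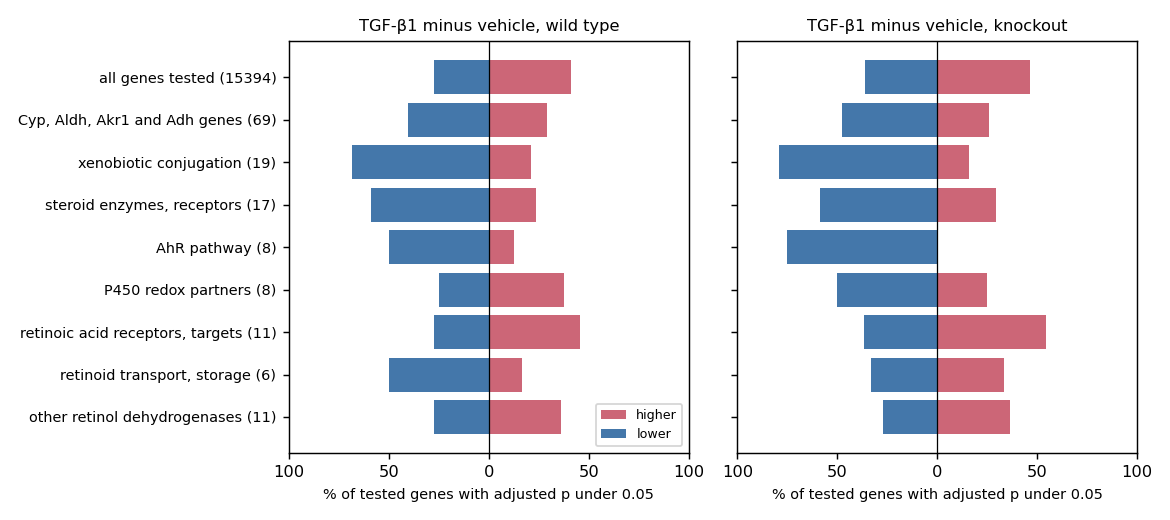
Share of tested genes (horizontal axis, percent) that were higher or lower with TGF-β1 at adjusted p under 0.05, in wild type (left) and knockout cells (right), for all genes, the Cyp, Aldh, Akr1 and Adh genes, and 7 related gene lists (vertical axis, number tested in brackets). Among all genes 41.3% were higher and 27.3% lower in wild type cells. Among the 19 genes of the xenobiotic conjugation list, which also holds Fmo, Aox1 and Ephx genes, 4 were higher and 13 lower.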

How the data were processed

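Primary lung fibroblasts in 4 groups of 4 were measured on 1-colour Agilent arrays. The deposited spot intensity values are on a linear scale and were background-subtracted by the authors in Agilent Feature Extraction 11.0.1.1, per the file headers. The authors also deposited a log2 value table of 9933 probes, whose normalization and choice of probes are not given in the sources used here. It served as an alternative.

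Here intensities were log2 transformed, spots with outlier marks left out, spots of a probe averaged and arrays shifted to a common 75th percentile. Probes had to be well above background throughout 1 group or more (4 of 4 arrays), as 33888 of 56605 were. Probes took names from their transcript accession in a RefSeq table of GRCm38.p6, and the brightest kept probe stood for a gene. Coordinates are given for RefSeq promoter windows only, since the array itself was designed on mm9. For 6 of 14 members with several kept probes another probe differed in sign in some comparison.

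Differences were fitted with limma 3.58.1 in R 4.3.3 over all 16 arrays with 1 coefficient per group, moderated spread and 2-sided tests, adjusted by Benjamini-Hochberg over 15394 genes in each of 5 comparisons. Values after ± are standard errors unless SD is given. Promoter windows were aligned with Biopython 1.88. The fit was tested on simulated data. There, 85.3% to 95.1% of 2-fold changes were recovered, and 31.1% (interaction) to 76.1% of 1.25-fold changes. False calls made up 2.79% to 7.43% of calls. They exceeded 5% between genotypes with TGF-β1 (7.43%) and for the interaction (5.19%). Precision is limited by the 4 arrays in each group.

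The gene families, roles and lists were chosen with earlier results of these data known. Genes named by rule were Islr, up to 10 highest and 10 lowest members per pair of groups with adjusted p under 0.05 and an absolute log2 difference of at least 1, up to 6 interactions in each direction, every retinoid gene, and up to 4 genes per list. Any list gene could be given as a value. Other members named were chosen after their values were seen or for their place on a chromosome. Alternatives were quantile normalization, normexp background correction, the value table, no filter, a filter on all 16 arrays, the mean over probes, a block by slide or replicate, each slide alone, and leaving out each array. Protein sequences were not used here.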

Additional observations from a re-analysis of the deposited data

Results flagged for a closer look

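Arrays that stood apart from the other 3 of their group were looked for in the 84 sets formed by 21 named genes and 4 groups, and 9 were found, where chance gives about 1 in 20. In wild type vehicle cells the highest arrays were at 5.22 for Adh7 (next 4.80) and 12.94 for Aldh1a2 (next 12.90). In knockout vehicle cells the lowest array for Akr1c18 was at 7.86 (next 8.11), and the highest were at 9.96 for Aldh1a3 (next 9.93) and 11.83 for Cyp7b1 (next 11.79). In knockout TGF-β1 cells the lowest array for Aldh1l2 was at 11.46 (next 11.59), and the highest were at 9.89 for Cyp4f18 (next 9.73), 2.98 for Cyp2c23 (next 1.83) and 3.30 for Cyp2f2 (next 1.94), the last 2 below background. For Aldh1a2, Aldh1a3 and Cyp7b1 the gaps are small because the other 3 arrays nearly coincide.

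The interaction term in limma, for a response to TGF-β1 that differs between genotypes, passed for 19 of 21 named genes and for 58.2% of all tested genes. Genes were named partly by this term and by large differences, so the count of 19 follows from that choice. The term was more positive in knockout cells for Akr1c19 (5.26), Aldh1l2 (0.87), Aldh18a1 (0.74), Cyp4f18 (0.67), Akr1b3 (0.46) and Aldh1a2 (0.37), in log2 units. It was more negative for Cyp2s1 (-4.63), Akr1c18 (-2.34), Cyp7b1 (-1.89), Cyp2j9 (-1.77), Akr1c14 (-1.72), Cyp26b1 (-1.42), Aldh1a1 (-1.34), Adh1 (-0.62) and Cyp4b1 (-0.50). The values for Akr1c19 and Akr1c14 include a group at background and are no fold changes. For Aldh1a7 (-2.26), Cyp2b10 (-1.78), Cyp2c23 (-1.63) and Cyp2f2 (-1.17) signals below background also leave the direction undetermined.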

How the results depend on the processing

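Of 1000 values of named genes under other settings, 952 kept their direction and their side of the threshold, and so did 1667 of 1680 with 1 array left out. Most of these genes were named for a large difference. Over all called members, quantile normalization kept direction and call for 46 of 48 in wild type and 43 of 51 in knockout cells. Normexp kept 44 of 48 and 46 of 51. Between genotypes with TGF-β1 each kept 42 of 51, and for the interaction they kept 38 of 43 and 35 of 43. Among genes named by rule the values that crossed 0 while past the threshold before or after were Akr1b3 in knockout cells (-0.34, quantile), Aldh1a2 between genotypes with TGF-β1 (-0.11, quantile) and Cyp4b1 there (0.0332, normexp). Other values, passed in neither setting, also crossed 0, such as Cyp26b1 in wild type (-0.07 to 0.05). Without the filter, rises in wild type and knockout cells numbered 41 and 50 of 142, a set enlarged by genes near background. In the authors' table of 32 genes, TGF-β1 gave 5 rises in wild type and 6 in knockout, the knockout was higher for 3 genes in vehicle and for 5 in TGF-β1 (lower for 23), and 4 interactions were positive. Within the first slide, 1 gene was higher and 0 lower with vehicle, 9 were higher between genotypes with TGF-β1, and 6 had a more positive interaction, and within the second slide 2 were higher with vehicle. Each slide alone leaves 2 arrays a group. Leaving out 1 array gave 20 to 21 rises and 27 to 29 falls in wild type, 17 to 21 and 31 to 34 in knockout, 3 to 6 higher and 9 to 12 lower with vehicle (3 higher without knockout vehicle replicate 2, 3 or 4), 14 to 17 and 32 to 36 with TGF-β1, and 12 to 14 and 30 to 32 for the interaction. Normexp took 12 values of named genes below the threshold, and signal over background limits what can be said of Adh7, Akr1c19, Cyp2b10, Cyp2c23 and Cyp2f2. Replicate numbers were not shown to pair the samples (correlations of same-numbered deviations from -0.034 to 0.145). With the replicate block the counts were 21 and 28, 21 and 32, 5 and 13, 16 and 35, and 13 and 32. For all tested genes they were 6507 and 4284, 7255 and 5587, 1284 and 1017, 6252 and 4809, and 5075 and 4233. Apart from these shifts the cause of a change was not tested.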
